A study of Mus musculus with 143 samples.

Results

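The clustered protocadherins alpha, beta and gamma were examined in the striatum of zQ175 mice, a knock-in model of Huntington's disease, and of wild-type (WT) mice. The rows were chosen by gene symbol alone: every row of the count table whose mouse symbol names a gene of the Pcdha, Pcdhb, Pcdhga, Pcdhgb or Pcdhgc series was taken, with pseudogenes left out. This gave 24 of the 41128 mouse gene rows, of which 22 were beta genes (Pcdhb1 to Pcdhb22), 1 was an alpha row under the symbol Pcdha11 and 1 was a gamma row under the symbol Pcdhgc4. Clustered protocadherins are cadherin-family adhesion proteins of neurons, encoded in 3 adjacent gene clusters on mouse chromosome 18. Each neuron switches on its own combination of these genes by promoter choice, and the proteins on facing membranes bind their identical partners, which serves dendrites and axons in telling self from other. In the alpha and gamma clusters a variable exon is spliced to constant exons shared by the whole cluster, whereas each beta gene carries its coding sequence in 1 exon and has no shared exons.

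Polyadenylated RNA was sequenced from 143 mice, with 1 striatal library per mouse and 18 groups. Mice of each genotype, zQ175 and WT, received HTT-10150, a small interfering RNA (siRNA) directed at full-length Htt, or NTC, a non-targeting siRNA, or were left untreated. In the strategy written 2[4]6 the siRNA was given at 2 months of age and tissue was taken at 6 months. In 6[4]10 it was given at 6 months with collection at 10 months, and in 2+6[8]10 at both 2 and 6 months with collection at 10 months. Each group held 8 mice, except the WT mice given HTT-10150 under 2+6[8]10, of which there were 7. That group held 2 females and 5 males, and every other group held 4 of each sex. The sources used here give neither the dose, the route of delivery, the zygosity nor the strain, and the table does not separate the mutant from the normal Htt allele.

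By their gene IDs in a later annotation of GRCm38, GENCODE M21, the alpha row lay at chr18:37005203-37187657 on the plus strand. The beta genes lay between positions 37264938 and 37524479, and the gamma row at chr18:37815079-37841873. The annotation used for counting may give the alpha and gamma rows other bounds. The GENCODE M21 annotation of that build lists 14 alpha and 21 gamma genes, and 33 of these entries have no row of their own in the table. The highest gene ID number in the table, 102132, lies below the lowest among those 33 entries, 102206. The alpha and gamma rows may therefore gather the transcripts of several variants, and single alpha and gamma variants are not analysed here. The transcript lengths that the deposited values imply for them were 5013 bases for the alpha row and 4747 bases for the gamma row. In the M21 annotation the neighbours Pcdhb21 and Pcdhb22 overlap on the same strand, so reads of the stretch they share cannot be told apart. They also shared the most sequence with other genes, 7.73% of the 100-base windows of Pcdhb21 and 5.47% of those of Pcdhb22. Pcdhb6 (2.31%) shared windows with Pcdhb10 and Pcdhb8, and Pcdhb8 (0.87%) with Pcdhb6. For several beta genes the deposited values imply shorter transcripts than the longest in M21. Among them were Pcdhb6 (2463 against 3729 bases), Pcdhb8 (2351 against 3334), Pcdhb11 (3629 against 4419), Pcdhb14 (3452 against 8695) and Pcdhb22 (3078 against 6609). Any effect of this on their counts was not tested.

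Total counts ran between 12551712 and 29194390 per library, with a median of 18850278. Htt, the target of HTT-10150, averaged 127 ± 9.56 CPM (counts scaled to a library of 1000000 with TMM factors; mean ± SD, n = 8) in zQ175 mice given HTT-10150 under 2[4]6, against 128 ± 10.8 CPM with NTC. It averaged 104 ± 10.6 CPM with HTT-10150 and 130 ± 10.3 CPM with NTC under 6[4]10, and under 2+6[8]10 107.27 ± 11.7 CPM with HTT-10150 and 137 ± 5.03 CPM with NTC. In WT mice the mean with HTT-10150 lay below that with NTC under all 3 strategies. All 10 markers of medium spiny neurons, the main striatal cell type, passed the filter on low counts in each strategy. In bulk tissue, fewer cells of a type and less RNA per cell cannot be told apart.

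Levels were first compared between genes per unit of length, in TPM (transcripts scaled to a total of 1000000 per library), over the untreated mice of all 3 strategies (n = 24 per genotype). The gamma row, which may gather several variants, was the most abundant row by a wide margin, at 396 ± 24.0 TPM in zQ175 and 390 ± 18.1 TPM in WT mice (SD). The alpha row followed at 62.4 ± 4.497 TPM in zQ175 and 52.8 ± 3.13 TPM in WT mice. The 22 beta genes summed to 145.9965 ± 13.2 TPM in zQ175 and 104.62 ± 8.32 TPM in WT mice, so together they lay above the alpha row and below the gamma row in both genotypes. Among the beta genes of WT mice, Pcdhb17 (11.3 ± 0.836 TPM), Pcdhb9 (10.6 ± 1.097 TPM) and Pcdhb20 (10.52 ± 1.16 TPM) stood closest to the top and differed by less than their spread. In zQ175 mice Pcdhb9 led the beta genes at 18.001 ± 1.83 TPM, with Pcdhb20 at 15.3 ± 1.40 TPM after it. Pcdhb1 was the lowest member, at 0.269 ± 0.159 TPM in zQ175 and 0.381 ± 0.139 TPM in WT mice, yet no member was at 0 in any library.

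The 3 clusters differed in how they varied with genotype. The mean beta sum was 36.1%, 35.8% and 35.5% higher in zQ175 than in WT striatum under 2[4]6, 6[4]10 and 2+6[8]10. The alpha row was 10.0%, 13.4% and 12.4% higher, and the gamma row was at -5.53%, 0.537% and -2.09%. Summed over the 22 beta genes, the lowest, median and highest zQ175 mice under 2[4]6 had 195.41, 221.89 and 244.02 CPM, against 140.85, 159.2 and 185.67 CPM in WT mice. The same 3 values under 6[4]10 were 197.45, 225.16 and 242.38 CPM in zQ175 mice, against 145.86, 163.96 and 182.81 CPM in WT mice. For 2+6[8]10 they were 192.74, 227.95 and 268.99 CPM in zQ175 mice, against 155.27, 169.16 and 196.56 CPM in WT mice. Every zQ175 mouse lay above every WT mouse under 2[4]6 and 6[4]10, and 23 of 24 did under 2+6[8]10.

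**Figure D1:**
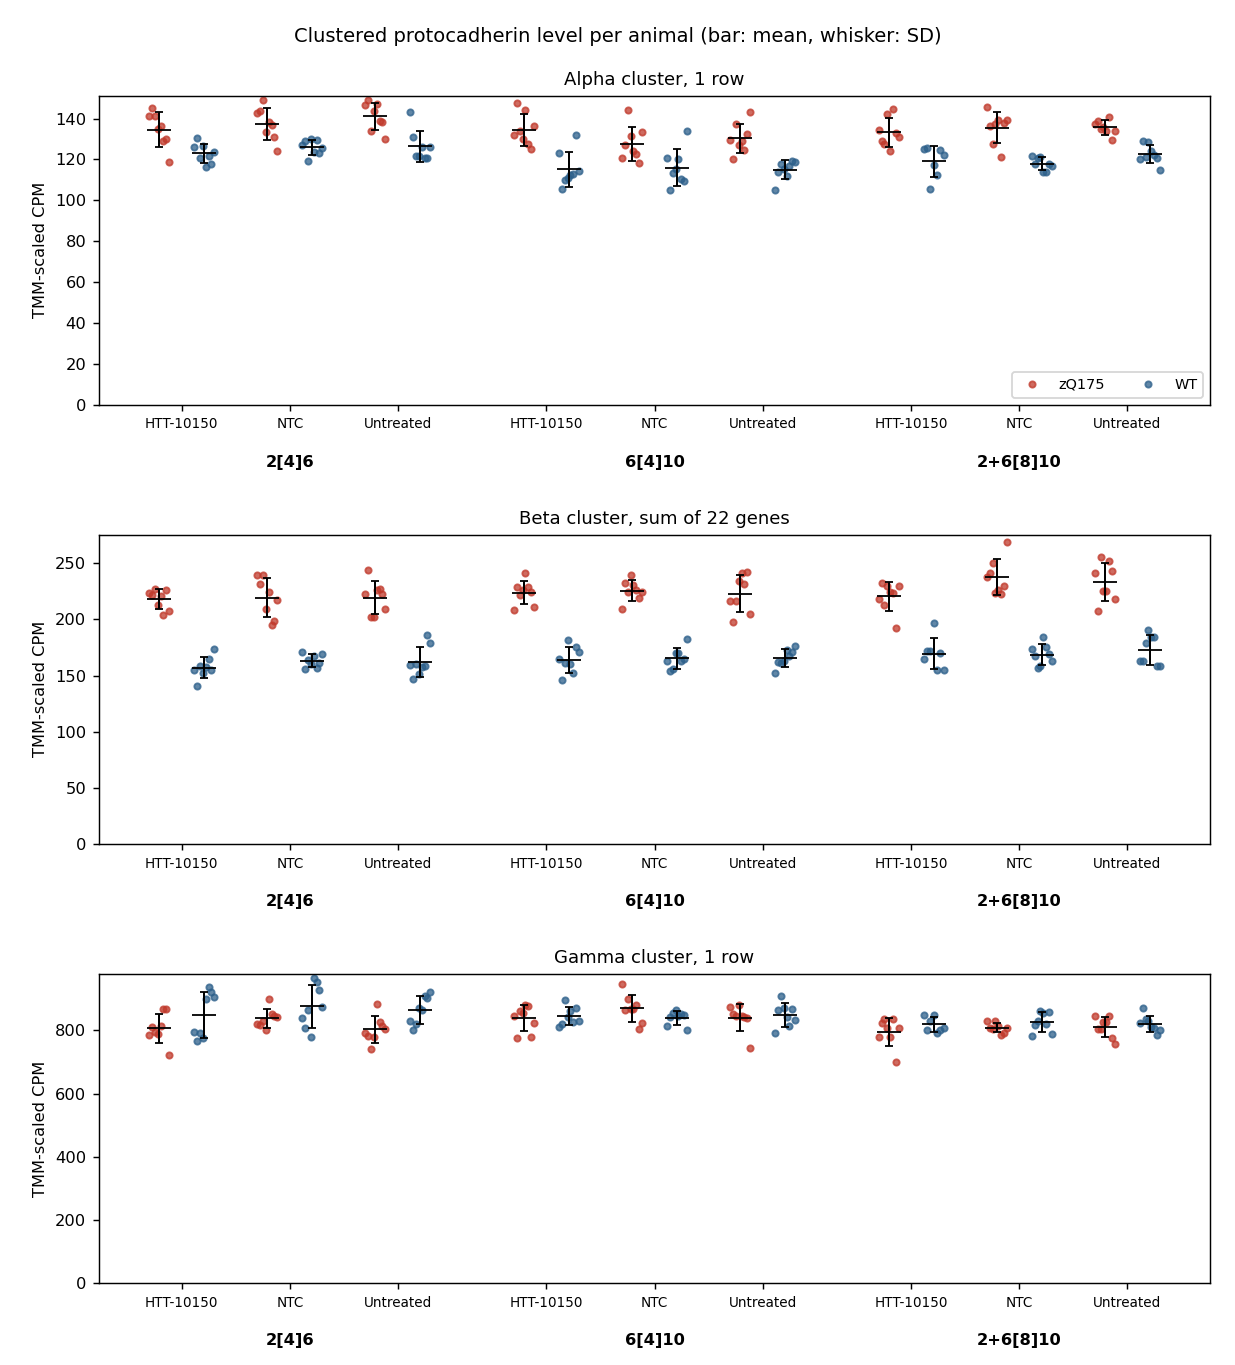
Level of the alpha row, the sum of the 22 beta genes and the gamma row in each mouse, in CPM scaled by TMM factors (vertical axes), for the 18 groups (horizontal axes, zQ175 left of WT within each treatment and strategy). Points are mice, bars are group means and whiskers are SDs. The beta sum of all 24 zQ175 mice lies above that of all WT mice under 2[4]6 and 6[4]10, whereas the gamma row overlaps in every strategy.

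The alpha row had 118.86, 138.28 and 149.04 CPM in the lowest, median and highest zQ175 mice under 2[4]6, against 116.16, 124.65 and 142.98 CPM in WT mice. The genotypes overlapped, and 7 of 24 zQ175 mice exceeded the highest WT mouse. Under 6[4]10 the values were 118.12, 129.79 and 147.4 CPM in zQ175 mice, against 105.17, 114.04 and 133.69 CPM in WT mice, and again 7 of 24 zQ175 mice exceeded the highest WT mouse. Values under 2+6[8]10 were 121.23, 135.36 and 145.57 CPM in zQ175 mice, against 105.51, 120.74 and 129.23 CPM in WT mice, and 19 of 24 zQ175 mice exceeded the highest WT mouse. The genotype effect, taken as the mean of the zQ175 minus WT differences in the 3 treatments, was a log2 fold change of 0.14 ± 0.02 (SE) under 2[4]6, 0.19 ± 0.03 under 6[4]10 and 0.17 ± 0.02 under 2+6[8]10. Its Benjamini-Hochberg adjusted p from edgeR's quasi-likelihood test was 2.3e-07, 1.8e-08 and 4.0e-10 under these strategies.

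The gamma row had 722.43, 813.73 and 899.64 CPM in the lowest, median and highest zQ175 mice under 2[4]6, against 766.68, 868.06 and 965.59 CPM in WT mice. The genotypes overlapped. Its genotype effect was -0.08 ± 0.02 on the log2 scale under 2[4]6 (edgeR adjusted p = 0.00339), 0.01 ± 0.02 under 6[4]10 (adjusted p = 0.619) and -0.03 ± 0.02 under 2+6[8]10 (adjusted p = 0.0941). The call under 2[4]6 was lost when length and GC slopes of each library were added to the fit (-0.03, adjusted p = 0.159) and without the mice of replicate number 4 (-0.05, adjusted p = 0.143). In TPM the median of all genes moved by 0.10, 0.08 and 0.09 (log2, zQ175 over WT) under 2[4]6, 6[4]10 and 2+6[8]10. With that shift taken off, the gamma row stood in TPM at -0.084, -0.00088 and -0.039, near its CPM values of -0.083, 0.0013 and -0.040 relative to the median of all genes. On the same relative scale in TPM, the alpha row stood at 0.15, 0.19 and 0.17 and the beta sum at 0.42, 0.42 and 0.41.

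In the test across all genes, a member was called at an edgeR adjusted p under 0.05. Under 2[4]6, 19 of the 24 members tested were called higher and 2 lower in zQ175 mice, where 27.9% of all tested genes were called higher and 27.9% lower (55.8% in either direction). Of 23 tested under 6[4]10, 19 were called higher and 1 lower, against 29.8% and 26% of all genes (55.8% in either direction). Of 23 tested under 2+6[8]10, 19 were called higher and 2 lower, against 30.3% and 28.8% of all genes (59.1% in either direction). The share called higher among the members was thus well over that among all genes in each strategy, and the share called lower well under it. The median log2 fold change of the members tested was 0.43, 0.47 and 0.42 under 2[4]6, 6[4]10 and 2+6[8]10, and that of all genes 0.00, 0.01 and 0.01. Pcdhb1, with 1 to 15 counts per library, passed the filter on low counts only under 2[4]6, where it was not called.

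The beta genes differed among themselves in size and sign. Pcdhb2, the gene after Pcdhb1 counted from the alpha side, had 2.34, 3.25 and 4.29 CPM in the lowest, median and highest zQ175 mice under 2[4]6, against 1.09, 1.74 and 2.20 CPM in WT mice. Under 6[4]10 it had 2.01, 3.85 and 5.08 CPM in zQ175 mice, against 1.06, 1.74 and 2.74 CPM in WT mice. In 2+6[8]10, Pcdhb2 had 2.5001, 4.29 and 5.38 CPM in zQ175 mice, against 1.06, 1.81 and 2.93 CPM in WT mice. The genotypes did not overlap under 2[4]6, and 23 and 22 of 24 zQ175 mice exceeded the highest WT mouse under 6[4]10 and 2+6[8]10. The fold of zQ175 over WT was 1.95, 2.09 and 2.10 in the 3 strategies (log2 0.96 ± 0.08, 1.06 ± 0.09 and 1.07 ± 0.08, edgeR adjusted p = 7.8e-16, 1.4e-14 and 7.3e-17).

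Pcdhb3, the next gene along the chromosome, had 5.80, 7.28 and 8.98 CPM in zQ175 mice (lowest, median, highest) under 2[4]6, against 3.12, 3.95 and 5.25 CPM in WT mice. Under 6[4]10 it had 6.53, 8.73 and 10.3 CPM in zQ175 mice, against 3.24, 4.11 and 5.74 CPM in WT mice. Under 2+6[8]10 it had 6.71, 8.4995 and 10.6 CPM in zQ175 mice, against 2.80, 4.29 and 5.55 CPM in WT mice. Every zQ175 mouse lay above every WT mouse in all 3 strategies. The folds were 1.77, 2.06 and 2.05 (log2 0.82 ± 0.05, 1.04 ± 0.06 and 1.03 ± 0.06, edgeR adjusted p = 6.9e-21, 6.4e-22 and 2.9e-21).

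Pcdhb9, the most abundant beta gene in zQ175 mice, showed the same separation at a higher level. It had 20.1, 22.1 and 25.5 CPM in zQ175 mice under 2[4]6, against 11.8, 14.8 and 17.8 CPM in WT mice, and 21.961, 24.8 and 30.7 CPM in zQ175 mice under 6[4]10, against 13.4, 15.4 and 17.3 CPM in WT mice. In 2+6[8]10 it had 21.9, 25.0 and 28.3 CPM in zQ175 mice, against 12.3, 14.9 and 17.9 CPM in WT mice. No zQ175 mouse overlapped a WT mouse, and the log2 fold change was 0.62 ± 0.04, 0.73 ± 0.03 and 0.76 ± 0.04 (edgeR adjusted p = 5.4e-20, 1.3e-25 and 6.9e-25).

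Pcdhb12 had 10.6, 12.3 and 15.4 CPM in zQ175 mice under 2[4]6, against 6.22, 7.72 and 9.13 CPM in WT mice. It was likewise free of overlap in every strategy, with log2 fold changes of 0.72 ± 0.05, 0.74 ± 0.04 and 0.74 ± 0.05. Pcdhb21, near the gamma-side end, had 3.89, 5.45 and 6.81 CPM in zQ175 mice under 2[4]6, against 2.35, 3.15 and 4.35 CPM in WT mice. Here 21, 23 and 23 of 24 zQ175 mice exceeded the highest WT mouse, and the log2 fold changes were 0.78 ± 0.06, 0.85 ± 0.07 and 0.82 ± 0.07 under 2[4]6, 6[4]10 and 2+6[8]10. Its annotated neighbour Pcdhb22, with which it may share reads, stood at 0.66 under 6[4]10 and 0.74 under 2+6[8]10.

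**Figure D2:**
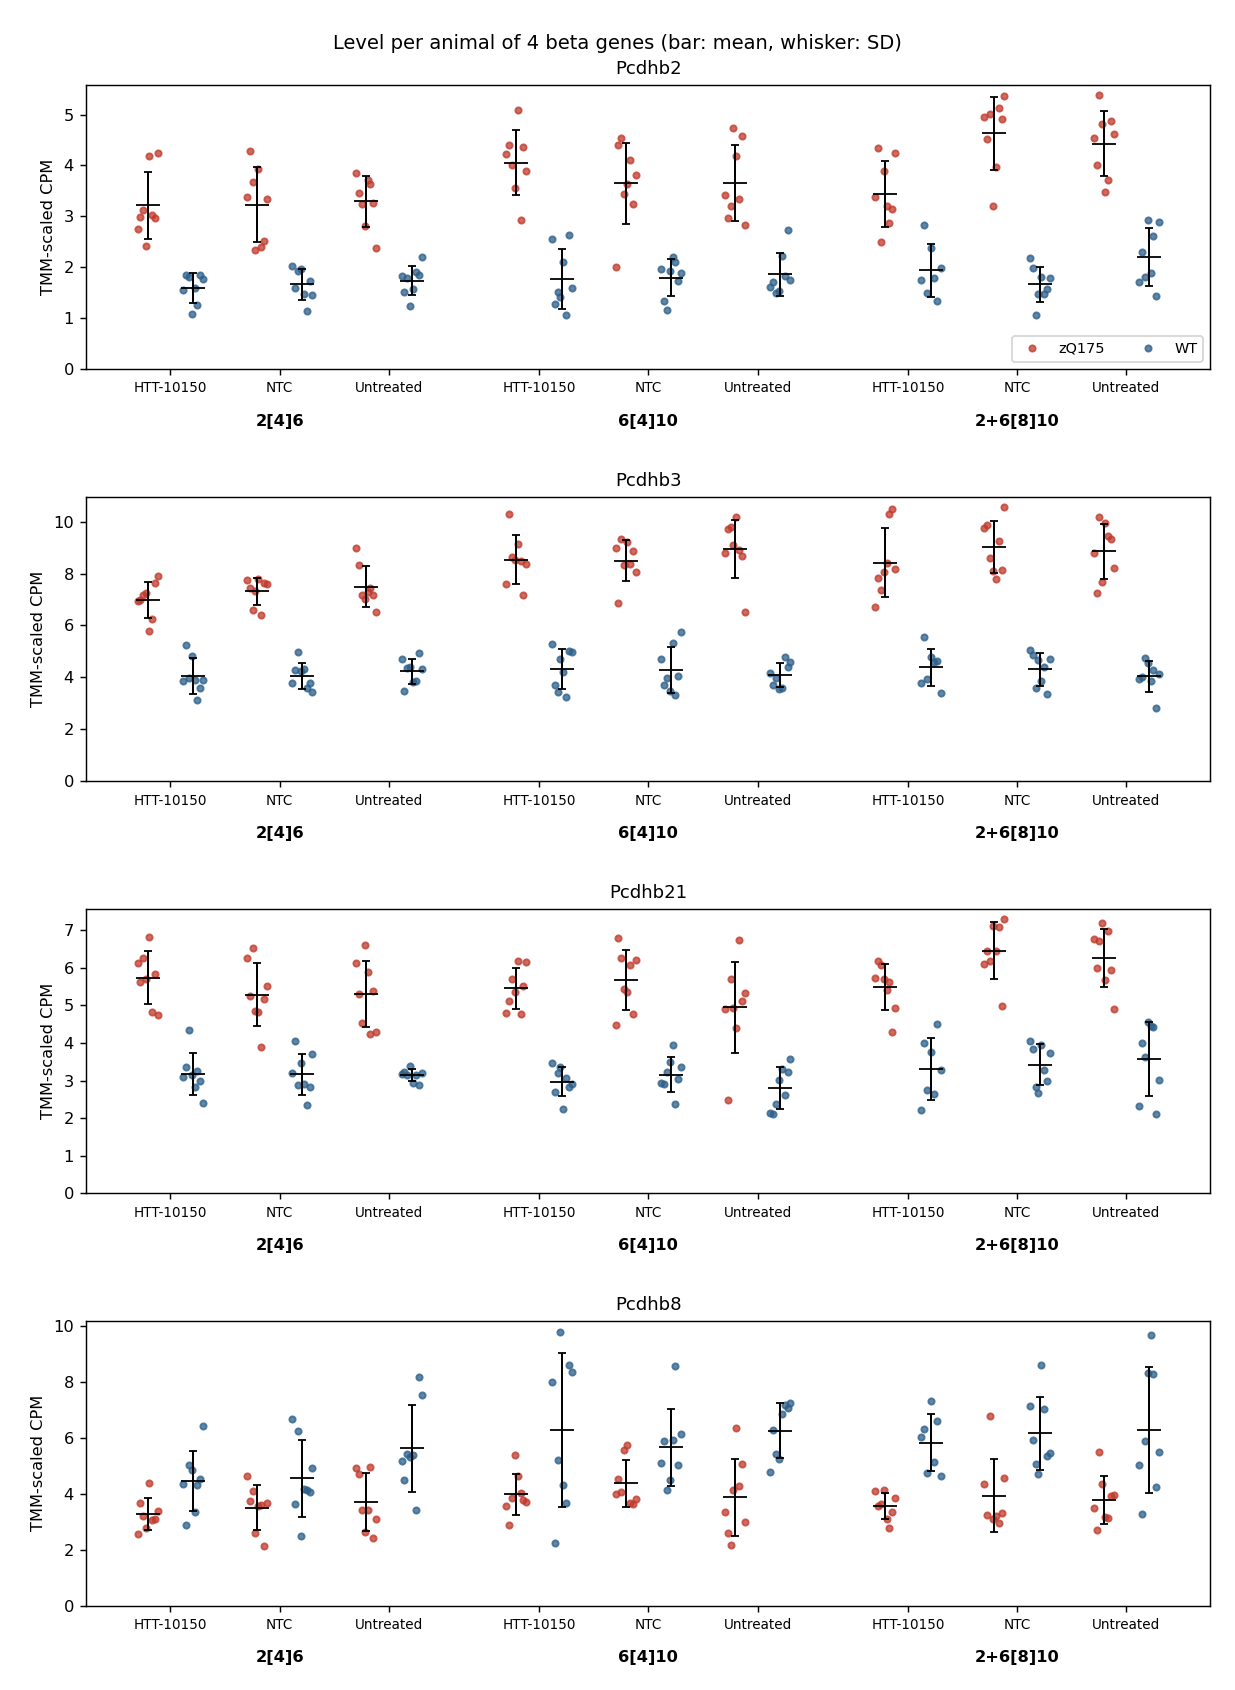
Level of Pcdhb2, Pcdhb3, Pcdhb21 and Pcdhb8 in each mouse, in CPM scaled by TMM factors (vertical axes), for the 18 groups (horizontal axes, zQ175 left of WT within each treatment and strategy). Points are mice, bars are group means and whiskers are SDs. Pcdhb3 has all zQ175 mice above all WT mice in each strategy, whereas the median of Pcdhb8 is lower in zQ175 mice.

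Pcdhb8 went the other way. It had 2.13, 3.41 and 4.96 CPM in the lowest, median and highest zQ175 mice under 2[4]6, against 2.49, 4.67 and 8.17 CPM in WT mice, and 2.16, 3.91 and 6.34 CPM in zQ175 mice under 6[4]10, against 2.24, 5.90 and 9.77 CPM in WT mice. Its values in 2+6[8]10 were 2.70, 3.51 and 6.77 CPM in zQ175 mice, against 3.27, 5.89 and 9.66 CPM in WT mice. With the treatments pooled, the genotypes overlapped in each strategy, and the WT mice were spread over a wider range than the zQ175 mice. Within the mice given HTT-10150 under 2+6[8]10, every zQ175 mouse lay below every WT mouse. Pcdhb8 fell by 0.47 ± 0.08, 0.57 ± 0.09 and 0.72 ± 0.08 on the log2 scale (edgeR adjusted p = 5.4e-06, 3.7e-07 and 3.5e-11), that is 1.38, 1.49 and 1.64 times lower. Of the counts assigned to beta genes in untreated mice, it took 1.66 ± 0.399% in zQ175 and 3.58 ± 0.754% in WT mice.

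Another 2 beta genes tested in every strategy, named after their values were seen, did not follow the others. Pcdhb6 was at 0.06 ± 0.07 under 2[4]6 (edgeR adjusted p = 0.495), 0.04 ± 0.06 under 6[4]10 (adjusted p = 0.598) and -0.17 ± 0.07 under 2+6[8]10 (adjusted p = 0.0433). The last of these is the second member called lower under 2+6[8]10, and the count there was 1 without a filter on low counts, without a sex term, and without the mice of replicate number 1, 2 or 3. Pcdhb11 was at 0.11 ± 0.06, -0.08 ± 0.06 and -0.07 ± 0.07, with adjusted p of 0.137, 0.283 and 0.351.

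These 3 genes all stand in the middle of the beta cluster. Pcdhb1, at its alpha-side end, also had a lower mean level in zQ175 than in WT mice. The difference in CPM was -12.2%, -27.7% and -23.3% under 2[4]6, 6[4]10 and 2+6[8]10, at 1 to 15 counts per library. Pcdhb1 was tested only under 2[4]6, where it was not called, and is left out of the blocks that follow. Along the chromosome, Pcdhb2 to Pcdhb5 had a median log2 fold change of 0.67 under 2[4]6, 0.86 under 6[4]10 and 0.91 under 2+6[8]10. Pcdhb6 to Pcdhb11 had medians of 0.20, 0.16 and 0.09, with a range of -0.72 to 0.76 under 2+6[8]10, where Pcdhb8 and its neighbour Pcdhb9 are the extremes. Pcdhb12 to Pcdhb22 had medians of 0.49, 0.55 and 0.55 with all values above 0. The blocks were drawn after the values were seen and were not tested. Over 21 beta genes, Spearman's rho between the mean log2 fold change and order along the chromosome was -0.04. For features of the longest M21 transcript, rho was 0.21 for GC content, -0.08 for length and -0.08 for the share of windows found in another gene. The lengths that the deposited values imply differ from these for several genes and were not used. It was -0.47 for the TPM in untreated WT mice, which enter the fold change as well. All genes were read in the same libraries, so these coefficients are descriptions.

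**Figure D3:**
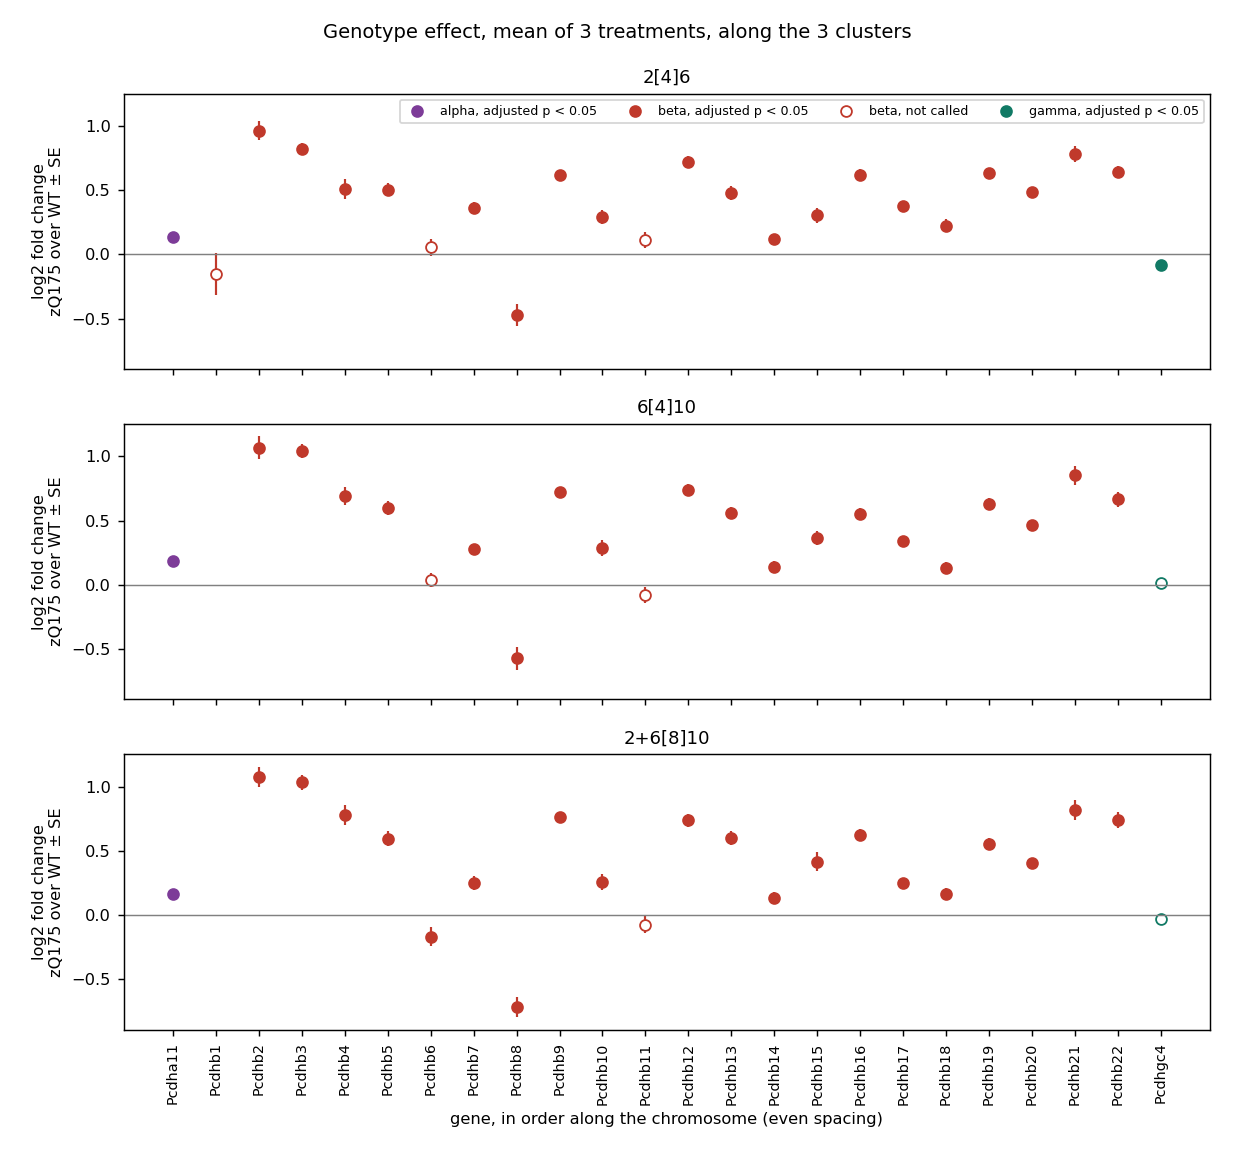
Log2 fold change of zQ175 over WT (vertical axis, mean of the 3 treatments, whiskers are SEs) for the 24 members in chromosome order (horizontal axis), with 1 panel per strategy; filled points passed an edgeR adjusted p under 0.05. Pcdhb2 and Pcdhb3 reach about 1, Pcdhb8 lies below 0 in all 3 panels, and the gamma row lies near 0.

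The genotype difference was then read in each treatment on its own, which gives 9 sets of separate animals. In either direction, 32.6%, 36.1% and 35.4% of all genes were called in untreated mice under 2[4]6, 6[4]10 and 2+6[8]10, 34.4%, 32.8% and 42.1% with NTC, and 33.5%, 34.7% and 36.2% with HTT-10150. In untreated mice, 17 of 24, 17 of 23 and 16 of 23 members were called higher in zQ175 under 2[4]6, 6[4]10 and 2+6[8]10, against 15.3%, 19.2% and 17.1% of all genes. With NTC the counts were 17, 18 and 19, against 15.9%, 16.8% and 20.7% of all genes. With HTT-10150 they were 18, 16 and 15, against 16.1%, 17.8% and 17.5% of all genes. The members called lower numbered 2, 1 and 1 in untreated mice (17.2%, 17% and 18.3% of all genes), 1, 0 and 1 with NTC (18.5%, 15.9% and 21.4%) and 1, 1 and 2 with HTT-10150 (17.4%, 16.9% and 18.7%).

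14 of the 23 members tested throughout were called higher in all 9 sets, against 5.06% of the genes tested in all 9: the alpha row, Pcdhb2, Pcdhb3, Pcdhb4, Pcdhb5, Pcdhb9, Pcdhb12, Pcdhb13, Pcdhb16, Pcdhb17, Pcdhb19, Pcdhb20, Pcdhb21 and Pcdhb22. Pcdhb10 was called higher in 8 sets, Pcdhb7 and Pcdhb15 in 7, Pcdhb18 in 3 and Pcdhb14 in 2. Pcdhb8 was called lower in 8 of 9 sets, with log2 fold changes between -0.79 and -0.36, and Pcdhb6 and the gamma row were called lower in 1 set each. Pcdhb11 was called in none of the 9 sets and Pcdhb1 in none of the 3 in which it was tested. Across the 9 sets the log2 fold change ran between 0.76 and 1.46 for Pcdhb2, 0.79 and 1.14 for Pcdhb3, 0.13 and 0.23 for the alpha row, and -0.11 and 0.06 for the gamma row.

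Groups that did not overlap were frequent. In Pcdhb3, Pcdhb9 and Pcdhb12 every zQ175 mouse of the group lay above every WT mouse in all 9 sets, in Pcdhb19 in 8, and in Pcdhb2, Pcdhb16 and Pcdhb22 in 7. The share of all genes that did so in that many sets was not counted, and only the shares in single sets are given here. With HTT-10150, 10, 12 and 8 members had every zQ175 mouse above every WT mouse under 2[4]6, 6[4]10 and 2+6[8]10, against 2.33%, 4.05% and 4.3% of all genes. With NTC the counts were 7, 10 and 9, against 2.6%, 3.15% and 5.29%, and in untreated mice 9, 8 and 11, against 3%, 4.12% and 3.72%. The reverse, every zQ175 mouse below every WT mouse, was seen in 1 member, Pcdhb8 with HTT-10150 under 2+6[8]10, where 6.69% of all genes showed it, and in 0 members in the other sets, where 4.02% to 6.97% of all genes did.

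**Figure D4:**
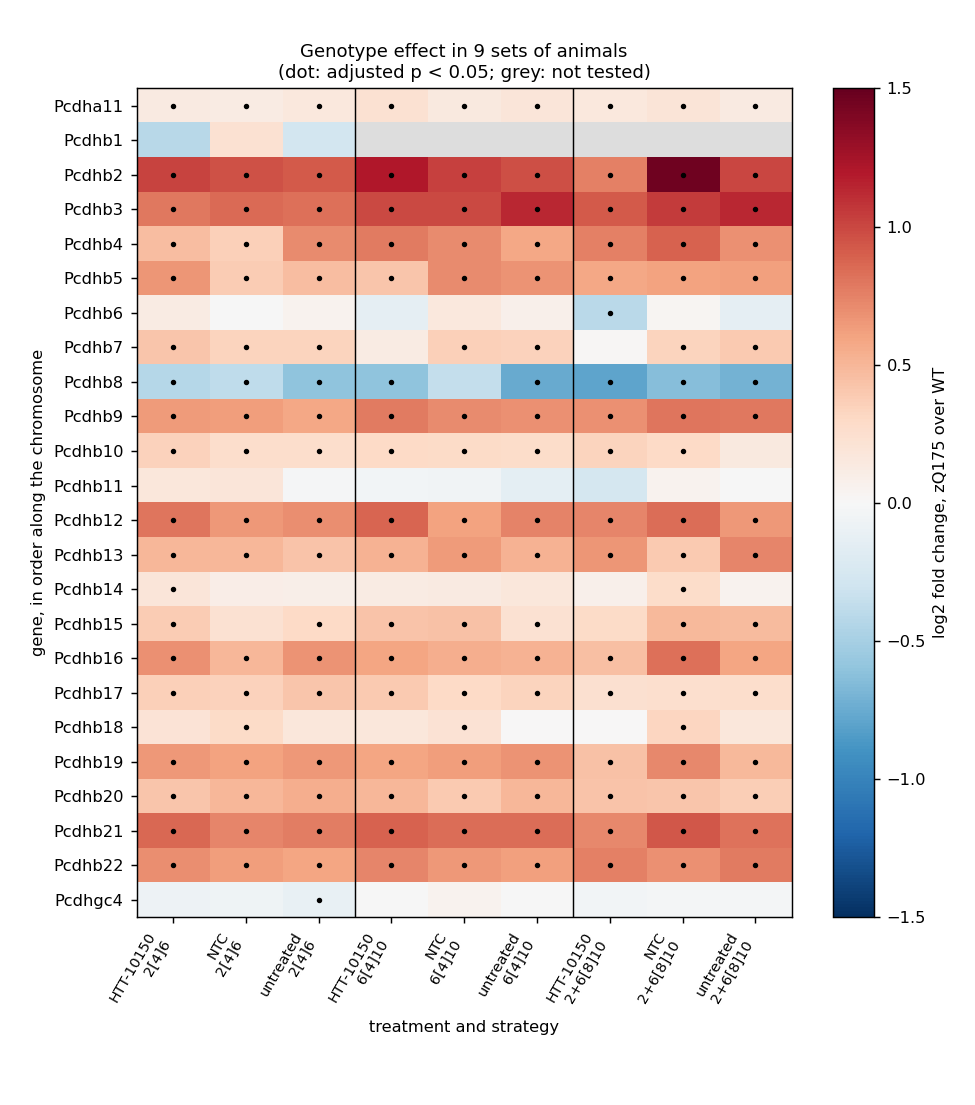
Log2 fold change of zQ175 over WT (colour) for the 24 members in chromosome order (rows) in the 9 sets of treatment and strategy (columns); a dot marks an edgeR adjusted p under 0.05 and grey marks a member that was not tested. Rows such as Pcdhb2 and Pcdhb3 are dotted in all 9 columns, and Pcdhb8 is below 0 in all of them.

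HTT-10150 was compared with NTC within each genotype to ask whether the siRNA moved the members. In zQ175 mice no member was called under 2[4]6 or 6[4]10, where 0% and 0% of all genes were called; in each, DESeq2 called 0 and 1 member had an unadjusted p under 0.05. Under 2+6[8]10, 1 of 23 members was called lower and none higher, where 3.16% of all genes were called in either direction and 2.06% lower. In WT mice edgeR called 0 members under 2[4]6, 6[4]10 and 2+6[8]10 (0.00636%, 0% and 0.0129% of all genes). DESeq2 called 0 there, and 0, 1 and 1 members had an unadjusted p under 0.05.

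The member called was Pcdhb2. In zQ175 mice under 2+6[8]10 it had 2.5001, 3.29 and 4.33 CPM with HTT-10150 (lowest, median and highest of 8), against 3.20, 4.94 and 5.37 CPM with NTC. The groups overlapped, and the untreated zQ175 mice, at 3.48, 4.58 and 5.38 CPM, lay near those given NTC. WT mice given NTC had 1.06, 1.68 and 2.17 CPM, all below the lowest zQ175 mouse given HTT-10150. With HTT-10150 in both genotypes, zQ175 and WT mice overlapped, and the highest WT mouse of the strategy reached 2.93 CPM. Pcdhb2 fell by 0.43 ± 0.12 on the log2 scale (edgeR adjusted p = 0.0448), that is 1.35 times lower with HTT-10150. The adjusted p reached 0.071 without a filter on low counts, 0.063 without a sex term and 0.072 when libraries were blocked by the number in their names. It reached 0.254, 0.195 and 0.178 without the mice of replicate number 1, 3 or 4.

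A slope on transcript length was taken in each library from the deviations of log2 levels from gene means. In SDs from the mean slope of all 143 libraries, it averaged -0.393 ± 0.850 with HTT-10150 and 0.873 ± 0.616 with NTC (SD, n = 8 each). With length and GC slopes in the fit Pcdhb2 was at -0.27 (edgeR adjusted p = 0.525). The median of the 23 members was -0.12, with 3 of 23 above 0, against a median of 0.01 over all genes. 6 of the 23 members had an unadjusted p under 0.05, and of those Pcdhb16, named after its value was seen, was closest to the threshold at -0.23 ± 0.07 (adjusted p = 0.0505). The share of all genes at an unadjusted p under 0.05 was not counted in this or any other comparison. Counts of members at that threshold therefore have no background here. A direct test of whether the HTT-10150 effect differed between the genotypes under 2+6[8]10 called 0 members in edgeR, where 0.529% of all genes were called. There 7 members had an unadjusted p under 0.05, the smallest adjusted p was 0.0818, and DESeq2 called 1 member lower. Under 2[4]6 and 6[4]10 edgeR and DESeq2 called 0 members in this test, with 0% and 0% of all genes called and 1 and 4 members at an unadjusted p under 0.05.

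**Figure D5:**
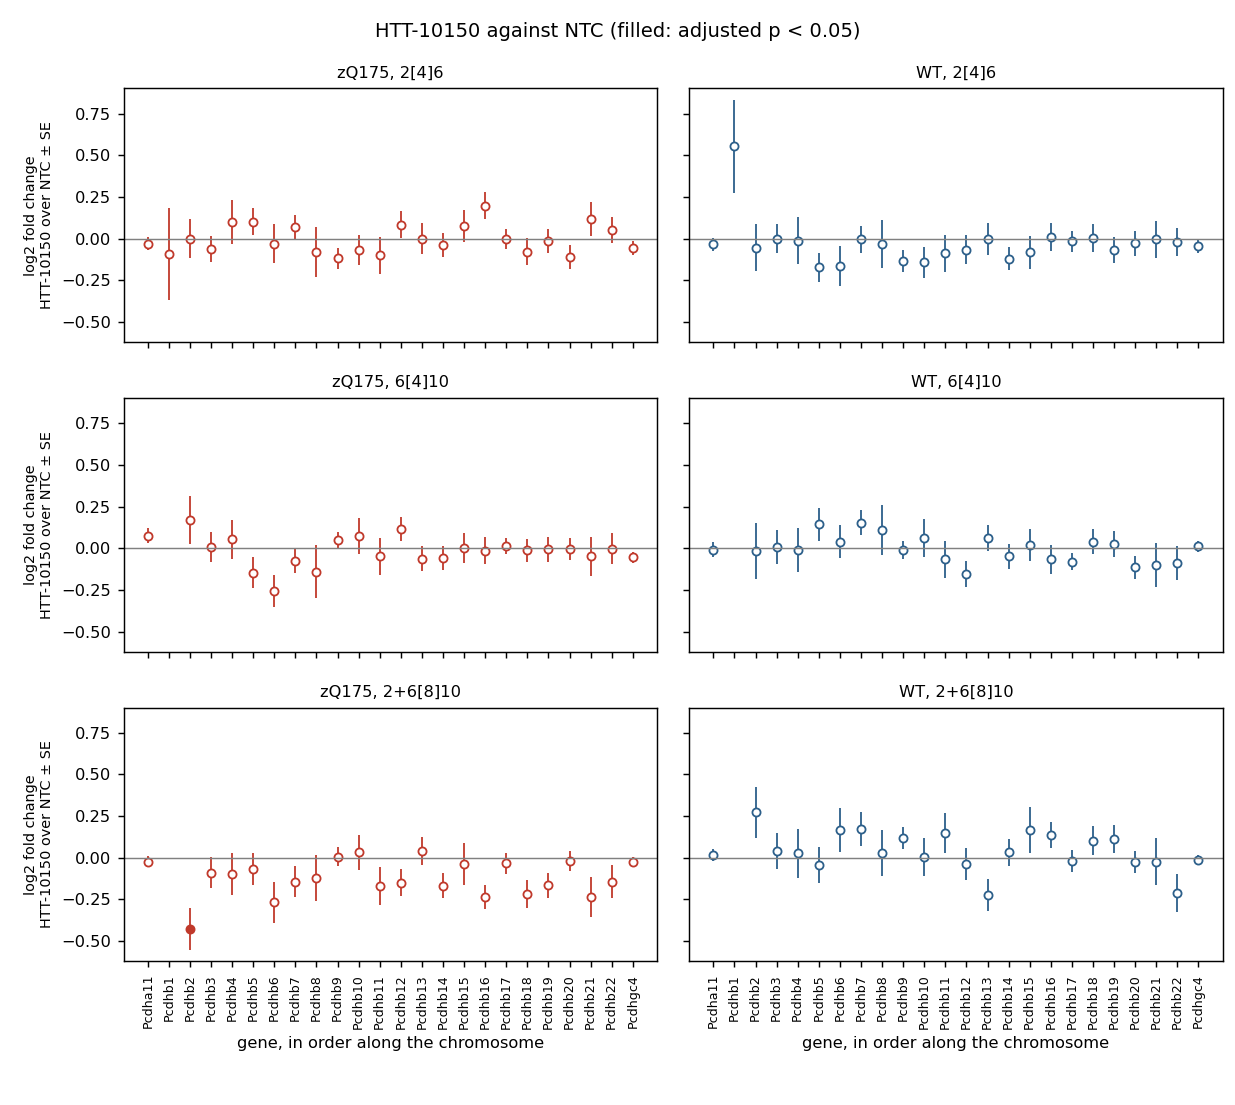
Log2 fold change of HTT-10150 over NTC (vertical axes, whiskers are SEs) for the members in chromosome order (horizontal axes), in zQ175 mice (left) and WT mice (right) under the 3 strategies; filled points passed an edgeR adjusted p under 0.05. In zQ175 mice under 2+6[8]10, 3 of 23 values lie above 0, and the 1 filled point is Pcdhb2 in that panel.

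NTC was set against untreated mice in the same way. In zQ175 mice edgeR and DESeq2 called 0 members under 2[4]6, 6[4]10 and 2+6[8]10, with 0%, 0% and 0% of all genes called and 1, 0 and 0 members at an unadjusted p under 0.05. In WT mice they also called 0, with 0%, 0% and 0.181% of all genes called and 1, 1 and 3 members at an unadjusted p under 0.05. Whether the genotype effect differed between female and male mice was tested in each strategy, and edgeR and DESeq2 called 0 members. The background there was 0%, 1.57% and 0.00645% of all genes, and 0, 5 and 4 members had an unadjusted p under 0.05.

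The genotype effect was compared between strategies in 1 fit over all 143 libraries. The signed log2 effect was higher under 6[4]10 than under 2[4]6 in 2 of 24 members, Pcdhb3 (by 0.21 ± 0.08, edgeR adjusted p = 0.0355) and the gamma row (by 0.09 ± 0.03, adjusted p = 0.0169, with effects of 0.01 under 6[4]10 and -0.08 under 2[4]6), where 9.03% of all genes were called in that direction. It was higher under 2+6[8]10 than under 2[4]6 in Pcdhb3 (0.22 ± 0.08, adjusted p = 0.0487) and Pcdhb9 (0.15 ± 0.05, adjusted p = 0.0312), where 5.35% of all genes were called in that direction. These counts lie close to their background and each call was lost in at least 4 of the other settings tried, among them leaving out the mice of replicate number 3 (adjusted p = 0.315 and 0.506 for Pcdhb3, 0.174 for the gamma row and 0.179 for Pcdhb9). Between 2+6[8]10 and 6[4]10, which share the age at collection, edgeR called 0 members, and DESeq2 also 0, with 0.00614% of all genes called and 1 member at an unadjusted p under 0.05.

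Untreated mice of 6 and 10 months were compared as well, although age and cohort cannot be told apart. In zQ175 mice 2 of 24 members tested were higher at 10 months, Pcdhb5 (0.30 ± 0.09, edgeR adjusted p = 0.0139) and Pcdhb3 (0.26 ± 0.09, adjusted p = 0.0264), against 8.4% of all genes. Pcdhb19 fell by 0.22 ± 0.07 (adjusted p = 0.0285) and the alpha row by 0.11 ± 0.04 (adjusted p = 0.0299), against 8.1% of all genes called lower. In WT mice Pcdhb11 was higher at 10 months (0.39 ± 0.11, adjusted p = 0.00744; 8.49% of all genes). The alpha row fell by 0.14 ± 0.04 (adjusted p = 0.00700) and Pcdhb19 by 0.24 ± 0.08 (adjusted p = 0.0280), against 8.06% of all genes called lower. The counts, with 24 members tested in each genotype, lie close to or under their background. No WT call remained without the mice of replicate number 1, and in zQ175 mice the calls fell to 0 higher without replicate number 3 and to 0 lower without replicate number 1 or 2.

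Genes known to act on clustered protocadherins were read in the same comparison, the mean of the 3 treatments under 2[4]6, 6[4]10 and 2+6[8]10, where the shares of all genes called were 27.9%, 29.8% and 30.3% higher and 27.9%, 26% and 28.8% lower. Of 13 genes known to act on promoter choice, 9, 5 and 8 were called higher and 3, 2 and 3 lower in zQ175 mice, with median log2 fold changes of 0.09, 0.06 and 0.06. Ctcf, which binds the promoters and their enhancers, was at -0.08, -0.08 and -0.07, and Rad21, a cohesin subunit, at 0.07, 0.10 and 0.08. Wapl, which releases cohesin from chromatin, was at 0.13, 0.09 and 0.08, and Wiz, a zinc-finger protein of chromatin, at 0.31, 0.35 and 0.33. All of these were called in the direction of their sign in each strategy, and that of Wiz was the largest change among the 13 genes. Other cohesin subunits differed in sign. Stag2 was called higher in each strategy (0.12, 0.10 and 0.10) and Smc3 under 2[4]6 and 6[4]10 (0.09 and 0.07). Smc1a was called lower under 2[4]6 alone (-0.04). Stag1 was called higher under 2[4]6 (0.10) and lower under 6[4]10 (-0.08) and 2+6[8]10 (-0.09).

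Of 15 regulators of silencing and DNA methylation, 6, 6 and 8 were called higher and 4 in each strategy lower, with a share called lower near that of all genes. Smchd1, a chromatin protein that holds clustered protocadherins silent, was at 0.14, 0.09 and 0.06. The methylcytosine oxidase genes differed in sign, with Tet1 at 0.25, 0.19 and 0.13, Tet2 at 0.40, 0.15 and 0.14, and Tet3 at -0.09, -0.10 and -0.08. Dnmt3a, a de novo DNA methyltransferase, was at -0.07, -0.19 and -0.22. Of 18 signalling partners, 3, 6 and 6 were called higher and 8 in each strategy lower. Members of the WAVE complex, which drives actin branching, were among those lower, with Cyfip2 at -0.40, -0.31 and -0.29, Nckap1 at -0.34, -0.28 and -0.26, and Abi1 at -0.33, -0.29 and -0.29. Not all of the complex went that way: Cyfip1 was called higher at 0.05, 0.11 and 0.11, and Wasf1, at -0.04 in each strategy, was not called. Marcks, an actin-linked membrane protein, was at 0.37, 0.33 and 0.32.

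Genes beside the clusters were read for position. Of 19 tested neighbours outside the locus, 6, 11 and 9 were called higher and 4, 4 and 5 lower, with medians of 0.02, 0.05 and 0.09. Against the same shares of all genes, the count called higher under 2[4]6 and the counts called lower are near the background. Of 4 tested rows that lie inside the locus and are no protocadherin, none was called higher and 2 were called lower in each strategy. These were Taf7, a subunit of the general transcription factor TFIID, at -0.21, -0.23 and -0.24, and 3222401L13Rik at -0.55, -0.66 and -0.52.

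Markers of cell types moved with genotype too. The summed level of 10 medium spiny neuron markers had a median of 5742 CPM in zQ175 mice under 2[4]6 (4167 to 6375 CPM), against 10769 CPM in WT mice (8462 to 12435 CPM). The medians were 5715 CPM in zQ175 and 9946 CPM in WT mice under 6[4]10, and 5424 CPM in zQ175 and 10046 CPM in WT mice under 2+6[8]10. In each strategy 9 of the 10 markers were called lower, and none of the 10 was at 0 in all libraries. The tenth, Tac1, the gene of the substance P precursor, was called higher under 2[4]6 (0.11) and not called under 6[4]10 or 2+6[8]10. The astrocyte sum had medians of 3229, 3108 and 3255 CPM in zQ175 mice, against 3947, 3772 and 4131 CPM in WT mice. The oligodendrocyte sum had medians of 8853, 8902 and 8783 CPM in zQ175 mice, against 10843, 11364 and 10948 CPM in WT mice. Both medians were thus lower in zQ175 mice. Of the 8 oligodendrocyte markers, 5 were called lower in each strategy. Mog was called higher under 2[4]6 (0.09) and not called under 6[4]10 or 2+6[8]10, and Mag and Cnp were called in no strategy. Gfap, an astrocyte marker that rises in reactive cells, was called higher at 0.45 under 6[4]10 and 0.30 under 2+6[8]10. Against 27.9%, 26% and 28.8% of all genes called lower, 7, 6 and 7 of 7 endothelial markers, 7, 2 and 4 of 7 microglia markers and 3, 2 and 2 of 6 oligodendrocyte precursor markers were called lower. Of the precursor markers, Olig2 was called higher under 6[4]10 (0.20) and Gpr17 under 2+6[8]10 (0.10). Of 8 cortical neuron markers 1, 2 and 2 were called higher and 0, 1 and 0 lower. The part of these cell types in the protocadherin differences was not tested.

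The summed choroid plexus markers, a sign of tissue from the adjoining ventricle, had a median of 117.05 CPM in zQ175 mice under 2+6[8]10 (30.3 to 3049 CPM), against 66.3 CPM in WT mice (35.1 to 1520 CPM), and all 7 were called higher there; none was called under 2[4]6 or 6[4]10. They reached 4097 CPM in 1 zQ175 mouse under 2[4]6 and 5462 CPM in 1 under 6[4]10. Without these 2 libraries the members called higher and lower were again 19 and 2 under 2[4]6 and 19 and 1 under 6[4]10. No library was left out under 2+6[8]10, and the part of the choroid plexus markers in the differences there was not tested.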

How the data were processed

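RNA-seq of striatum from 143 mice was analysed from 2 tables. The deposited expected counts per gene were made by the authors with RSEM on GRCm38, per the submitters' processing notes; its version, the aligner, the annotation and the strand setting were not given in the sources used here. The second deposited table is named as FPKM, but each column sums to 1000000, so it was read as TPM, and it was used for levels only.

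Expected counts were rounded to whole numbers; 78.4% of the nonzero values were already whole within 1e-06. Of 41135 entries, 7 name no mouse gene and were left out (5.91e-06% of counts). Symbols, lengths and GC content came from GENCODE M21 for 40254 IDs. Groups came from the sample titles. In each strategy, genes that passed filterByExpr (15716 under 2[4]6, 15757 under 6[4]10, 15506 under 2+6[8]10 and 16295 over all libraries) were scaled with TMM and tested with edgeR 4.0.16 in R 4.3.3 (glmQLFit and glmQLFTest, robust), with sex as a covariate and Benjamini-Hochberg adjustment over all genes tested. SEs were derived as the size of the log2 fold change over the root of the F statistic. The labels name separate mice, so the p-values measure the spread between mice. Many mice share a number in their library names, and nearly every such number holds a single genotype. The genotype tests took these mice as independent, and an effect of the number on those tests was not tested. The fit was tested on simulated counts.

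The alternatives were DESeq2 1.42.0, RLE size factors, no filter, length and GC slopes per library, a fit without sex and a fit restricted to the compared groups. A block for the replicate number was also tried. A block for the number that library names carry was run only for HTT-10150 against NTC. Each replicate number was left out in turn (the female and the male mouse with it, in groups that had them). In the WT group of 7 mice, the male with the highest replicate number was never left out. Leaving out the 2 libraries with high choroid plexus markers was chosen after seeing the data. Genes were named with values by a rule: in each cluster the 4 with the largest change among those called the same way in all 3 strategies, C-type members, members called against their cluster, and members called outside the genotype comparison. The members and lists were chosen with earlier results of these data known. Sequences are not printed here.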

Additional observations from a re-analysis of the deposited data

Results flagged for a closer look

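Levels in CPM were examined for single mice that stood apart from the others of their group, in 216 sets of 7 or 8 mice. Dixon's test marked 13, which is near the number that chance gives at about 1 in 20. In zQ175 mice the gamma row stood low at 744.66 in an untreated male under 6[4]10 (replicate 4; the others 837.99 to 880.81), and Pcdhb3 was low in the same mouse at 6.5307 (8.667 to 10.177). The gamma row was also low in a zQ175 female given HTT-10150 under 2+6[8]10 at 700.48 (778.2 to 834.55). Pcdhb8 was high in a zQ175 female given NTC under 2+6[8]10 at 6.7657 (2.9483 to 4.5563). Pcdhb19 was low in an untreated zQ175 male under 6[4]10 at 11.523 (14.277 to 16.624). Pcdhb5 was high under 2[4]6 in a zQ175 female given NTC at 8.9734 (5.2459 to 6.723) and in an untreated zQ175 female at 8.0155 (6.4498 to 7.0575).

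In WT mice the alpha row was high in an untreated female under 2[4]6 at 142.98 (120.52 to 130.89), and Pcdhb5 was low in another at 3.6496 (4.9407 to 5.813). The beta sum was high in a WT female given HTT-10150 under 2+6[8]10 at 196.56 (155.27 to 171.95), and this is the mouse that overlaps the zQ175 range. Pcdhb3 was low in an untreated WT male under 2+6[8]10 at 2.8009 (3.851 to 4.7596) and Pcdhb12 in another at 6.6304 (7.8727 to 8.7687). Pcdhb8 was high in a WT female given NTC under 6[4]10 at 8.5631 (4.1076 to 6.14).

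A difference of the genotype effect between strategies passed the test in 4 cases. Under 6[4]10 against 2[4]6 these were Pcdhb3 (0.21 on the log2 scale) and Pcdhgc4 (0.090), and under 2+6[8]10 against 2[4]6 they were Pcdhb3 (0.22) and Pcdhb9 (0.15).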

How the results depend on the processing

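The members called higher in zQ175 mice, as the mean of the 3 treatments, numbered 18 or 19 under each strategy in every setting run. The library-number block was not run for this comparison. Small counts moved. Members called lower under 2[4]6 in untreated mice (2) were 1 without a filter, without a sex term, with length and GC slopes and without the 2 libraries with high choroid plexus markers. With NTC (1) they were 0 without a filter, with only the groups compared, without a sex term and with the slopes. With HTT-10150 (1) they were 0 without a sex term and with the slopes, and as the mean of treatments (2) they were 1 with the slopes. Under 6[4]10 with NTC (0) the count was 1 with only the groups compared. Under 2+6[8]10 it was 1 for HTT-10150 (2) without a sex term, and 1 for the mean of treatments (2) without a filter or a sex term. HTT-10150 against NTC in zQ175 mice under 2+6[8]10 (1 lower) gave 2 with RLE size factors and with the replicate block, and 0 without a filter, without a sex term, with the slopes and with the library-number block. Its difference between genotypes (0) gave 1 lower in DESeq2. The count of members with a higher signed genotype effect under 6[4]10 than 2[4]6 (2) gave 1 in DESeq2, without a filter, without a sex term and with the slopes. Under 2+6[8]10 against 2[4]6 (2 higher, 0 lower) the higher count was 1 in those 4 settings and with RLE size factors, and 0 with only the groups compared, while the lower count was 1 with the slopes. At 10 against 6 months in untreated zQ175 mice, the higher count (2) was 1 without a filter and with only the groups compared, and the lower count (2) was 1 with only the groups compared and 0 with the slopes. The cause was not tested.

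Leaving out 1 replicate number at a time gave, for members called lower in zQ175 mice under 2[4]6, 1 to 2 in untreated mice, 0 to 1 with NTC, 0 to 1 with HTT-10150 and 1 to 2 for the mean of treatments. It gave 0 to 1 with NTC under 6[4]10, and under 2+6[8]10 1 to 3 with HTT-10150 and 1 to 2 for the mean. For HTT-10150 against NTC it gave 0 to 2. For the strategy differences it gave 0 to 1 higher under 6[4]10, and 0 to 2 higher and 0 to 2 lower under 2+6[8]10. For 10 against 6 months it gave 0 to 1 higher and 0 to 2 lower in WT, and 0 to 3 higher and 0 to 1 lower in zQ175 mice. The gamma row, at 0.01 as the mean of treatments under 6[4]10, ranged between -0.012 (without replicate 1) and 0.034 (without replicate 4).

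In TPM, the log2 ratio of mean levels (zQ175 over WT) of the alpha row was 0.23 (HTT-10150), 0.25 (NTC) and 0.25 (untreated) under 2[4]6, 0.33 (HTT-10150) and 0.24 (NTC) under 6[4]10, and 0.32 (NTC) and 0.24 (untreated) under 2+6[8]10, against 0.12 to 0.22 in CPM. That of the beta sum was 0.55 (HTT-10150) and 0.52 (NTC) under 2[4]6 and 0.52 (NTC) under 6[4]10. That of the gamma row was 0.047 (NTC) and -0.022 (untreated) under 2[4]6, 0.078 (HTT-10150) and 0.14 (NTC) under 6[4]10, and 0.066 (NTC) and 0.059 (untreated) under 2+6[8]10. In TPM the median of all genes moved as well, by the shift given with the gamma row, and the cause was not tested.

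The replicate numbers were not taken to pair the mice: correlations of same-numbered deviations ran between -0.557 and 0.673, with medians of 0.128, 0.0137 and 0.0281 under 2[4]6, 6[4]10 and 2+6[8]10, against -0.0195, -0.0165 and -0.00547 for other numbers. Of the libraries, 29.167%, 14.6% and 14.9% were closest to their own of 8 numbers by sex, against 12.5% if all were equal, so 2[4]6 stands higher. Apart from the HTT-10150 comparison above, the replicate block moved no count of calls by over 1.5 times. Depth limits Pcdhb1, with 1 to 15 counts per library, and single alpha and gamma variants were not resolved.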
